A study of Mus musculus with 12 samples.

Results

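Activated, disease-associated microglia carry a small and recurrent set of transcripts, and 10 of these genes, *Trem2*, *Tyrobp*, *Clec7a*, *Axl*, *Itgax*, *Apoe*, *Lpl*, *Spp1*, *Cst7* and *Cd9*, were followed here in retinas that lack the transcription factor Otx2 in the photoreceptor lineage. Members were the probe sets whose annotation gives exactly 1 symbol among these genes. This rule found 12 of the 45101 probe sets on the array, for 9 of the 10 genes. *Spp1* was named by none of them. One further probe set, which the annotation leaves unnamed, is called *Spp1* in the study's own list of up-regulated genes. It is described beside the others but left out of every count of members. *Cst7* and this *Spp1* probe set were listed by the study for their change in these same arrays, so their P12 values are not independent evidence of a direction. The other members were also chosen with earlier results of these data known, so the counts of members below are a description.

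The arrays held RNA of dissected whole retinas in 4 groups of 3 arrays each. They were *Otx2* CKO retinas at postnatal day 12 (P12), control retinas at P12, *Otx2* CKO retinas at P1 and control retinas at P1. *Otx2* CKO mice are *Otx2* flox/flox with Crx-Cre, and control mice are *Otx2* flox/flox without Crx-Cre, so both genotypes carry the floxed alleles. The *Crx* promoter drives Cre in developing photoreceptors. *Otx2* checked the labels: its signal was 245, 166.8 and 107.9 in the P12 *Otx2* CKO arrays, against 1057.7, 1047.7 and 802.9 in the P12 control arrays, and it was also lower in each P1 *Otx2* CKO array than in each P1 control array. Signals are linear and were used as deposited for comparisons of genotypes. The arrays were not of equal brightness: the mean signal after trimming 2% from each end was 129.8 ± 36.2 in P12 *Otx2* CKO, 101.6 ± 8.22 in P12 control, 25.0 ± 3.04 in P1 *Otx2* CKO and 29.2 ± 0.843 in P1 control arrays (SD, n = 3 each). The brightest was replicate 1 of P12 *Otx2* CKO, at 171.6. The retina was identified by its markers: in P12 control arrays the summed signal of 8 photoreceptor genes was 30044 to 42856, and at P12 8 of 8 fell in the *Otx2* CKO retina (against 4.54% of all probe sets tested).

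Microglia are the resident macrophages of the retina and the brain. In degenerating or injured tissue they can leave their resting program and take on a state that depends on TREM2, a lipid-sensing receptor on the cell surface, and on TYROBP (DAP12), the adaptor through which TREM2 signals. In that state they express receptors for debris and dying cells, proteins that carry or split lipids, and lysosomal proteins. Several members are not limited to microglia: *Apoe* is also made by Muller glia and astrocytes, and *Cd9*, *Axl* and *Lpl* are found in other cells of the nervous system and its vessels. In whole-retina RNA fewer cells of a type and less RNA per cell cannot be told apart.

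Promoter windows of 4 genes are printed to show the letters around their start sites. They are RefSeq windows of 300 bases on the gene's own strand (250 before the start site and 50 after it, build GRCm38.p6). Capitals mark GAGGAA or its reverse complement TTCCTC, a core that PU.1 and other ETS factors bind, and TGANTCA, the AP-1 element. Each of the 4 printed windows holds such a match, so they do not stand for the 12 windows found. A second window of *Spp1*, a window of *Apoe* and that of *Cd9* hold none and are not printed. PU.1 is the factor that sets up macrophage and microglia identity, and AP-1 factors (Fos and Jun) rise in activated cells.
Trem2, chr17:48346151-48346450, + strand: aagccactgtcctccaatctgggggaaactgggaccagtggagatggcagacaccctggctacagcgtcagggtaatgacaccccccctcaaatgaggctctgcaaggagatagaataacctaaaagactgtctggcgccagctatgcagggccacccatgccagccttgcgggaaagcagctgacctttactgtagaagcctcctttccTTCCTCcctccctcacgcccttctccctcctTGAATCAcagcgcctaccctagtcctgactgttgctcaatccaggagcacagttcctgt
Clec7a, chr6:129472730-129473029, - strand: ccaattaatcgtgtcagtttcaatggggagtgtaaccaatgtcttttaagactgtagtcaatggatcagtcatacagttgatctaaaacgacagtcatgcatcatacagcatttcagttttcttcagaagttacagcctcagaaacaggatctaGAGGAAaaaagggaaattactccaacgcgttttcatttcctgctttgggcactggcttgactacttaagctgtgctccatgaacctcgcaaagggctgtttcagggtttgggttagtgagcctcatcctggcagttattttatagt
Spp1, chr5:104434861-104435160, + strand: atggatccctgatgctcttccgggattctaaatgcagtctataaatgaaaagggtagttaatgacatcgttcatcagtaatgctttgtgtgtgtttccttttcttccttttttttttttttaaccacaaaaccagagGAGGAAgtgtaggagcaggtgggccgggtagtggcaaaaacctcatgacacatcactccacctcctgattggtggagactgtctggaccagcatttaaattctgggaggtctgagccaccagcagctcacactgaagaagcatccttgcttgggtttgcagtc
Cst7, chr2:150570165-150570464, + strand: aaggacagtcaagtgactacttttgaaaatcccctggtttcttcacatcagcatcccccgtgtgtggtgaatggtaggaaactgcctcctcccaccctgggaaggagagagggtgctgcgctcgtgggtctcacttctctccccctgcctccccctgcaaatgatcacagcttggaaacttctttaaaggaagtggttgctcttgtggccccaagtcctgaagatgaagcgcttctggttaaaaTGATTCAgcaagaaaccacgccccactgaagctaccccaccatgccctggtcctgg

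The *Trem2* window holds TTCCTC from base -40 and TGAATCA from base -9 of the start site. In *Clec7a* GAGGAA starts at base -96, in *Spp1* at base -113, and in *Cst7* TGATTCA starts at base -6. Windows were found for 8 of the 10 genes, 12 windows in all, some of which overlap, and not for *Lpl* and *Tyrobp*. GAGGAA (either strand) was in 7 of these 12 windows, belonging to 5 genes, and in 28.3% of 32851 mouse windows of this length. TGANTCA was in 3 of 12 windows (*Cst7*, *Itgax*, *Trem2*), against 7.81% of all windows. The Otx and Crx core TAATCC was also in 3 of 12 (*Apoe*, *Itgax*, *Cd9*), against 7.06%, and the E-box CACGTG of MITF and TFE factors was in 0 of 12, against 7.15%. Both strands were searched, and no motif contains another. These are matches of letters, with no measurement of binding.

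At P12 the activated-microglia genes were higher in the *Otx2* CKO retina. Of the 9 annotated genes 8 had a mean signal of at least 50 in a P12 group and were tested, 7 of these 8 rose at an adjusted p under 0.05, and 0 fell. Among all 21390 probe sets tested 18.7% passed, 14.1% higher and 4.54% lower. *Cst7*, *Trem2* and *Clec7a* reached the limit through the *Otx2* CKO group alone, so a call of theirs could only be toward higher, and they add nothing to this count as evidence. Of the 5 members with a mean of at least 50 in both groups (*Apoe*, *Cd9*, *Lpl*, *Axl* and *Tyrobp*), 4 rose and 0 fell, with a median log2 change of 1.45, against 12.4% higher, 3.21% lower and a median of 0.35 among the 17468 probe sets of that kind. The largest changes among the annotated members were those of *Cst7*, *Tyrobp*, *Trem2* and *Apoe*. The median log2 change of all probe sets tested was 0.39, and several changes below are also given relative to it. In 7 of the 8 tested genes, the same that were called, the 3 *Otx2* CKO arrays lay above the 3 control arrays. This held for 20.8% of all probe sets tested. It restates the calls and adds no evidence to them. Changes are log2(signal + 16) differences with adjusted p values from limma, which fits 1 spread for each probe set over the 12 arrays. That spread takes in the P1 arrays, where most members were low, so it is not the spread at P12 alone. With each age fitted alone 4 members rose, *Clec7a*, *Cd9* and *Axl* did not pass, and 377 of all 21390 probe sets rose. The main fits did not pair arrays by experiment number, and with that pairing *Lpl* also passed.

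**Figure D1:**
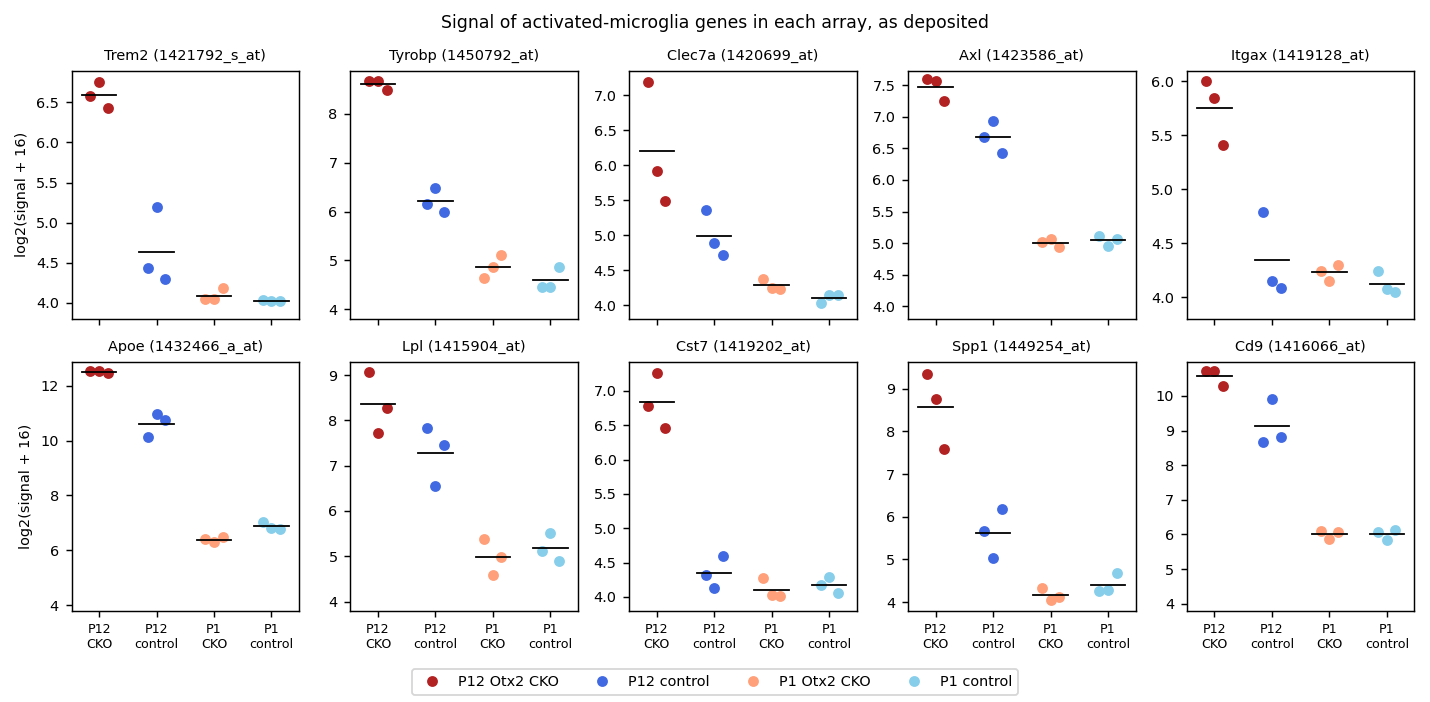
Signal of the 9 annotated genes and of the *Spp1* probe set in each of the 12 arrays, as log2(signal + 16) of the deposited signals; points are arrays, lines are group means, and each panel has its own scale. The P12 *Otx2* CKO arrays lie above the P12 control arrays in every panel but that of *Lpl*, where 195.7 in an *Otx2* CKO array is below 211.1 in a control array.

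Among the receptors and their adaptor, *Tyrobp* had signals of 388.7, 391.7 and 342 in the P12 *Otx2* CKO arrays, against 55.7, 73.5 and 47.4 in the P12 control arrays. The 2 groups were far apart, and the spread within each was small. The ratio of the group means was 6.36, with a log2 change of 2.39 (SE 0.22, limma's adjusted p = 1.28e-05), 2.01 above the median of all probe sets. Within the 3 experiments, that is between arrays that share an experiment number, the *Otx2* CKO array had 6.98, 5.33 and 7.22 times the signal of its control.

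*Trem2* was read by a pair of probe sets that did not behave alike. Its brighter probe set, 1421792_s_at, gave 79.2, 92.2 and 69.9 in P12 *Otx2* CKO arrays, against 5.6, 20.5 and 3.6 in P12 control arrays. The control mean was under 20, the level to which such means were raised before a ratio was taken, so the mean was at least 4.02-fold higher in *Otx2* CKO. This was a log2 change of 1.95 (SE 0.24, limma's adjusted p = 0.000168). The other *Trem2* probe set, 1421226_at, stayed under the signal limit, with 10.3, 15.5 and 8.6 in P12 *Otx2* CKO arrays and 19.3, 21.1 and 13.3 in P12 control arrays. It was not tested, its groups overlapped, and it gives no support to the first. With the mean of both probe sets the gene stayed under the limit, so this change rests on 1 probe set. The ending _s_at marks a probe set that its design shares between transcripts.

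*Clec7a* encodes Dectin-1, a receptor for fungal glucans that serves as a marker of activated microglia. Its signals were 130.5, 44.3 and 28.9 in P12 *Otx2* CKO arrays, against 24.9, 13.7 and 10.3 in P12 control arrays. Replicate 1 of *Otx2* CKO, the brightest array of the series, carried most of this mean. On the log2 scale this was 1.21 (SE 0.36, limma's adjusted p = 0.0327), at least 3.40-fold. Without that array the gene fell under the signal limit, and it missed the threshold in 10 of 25 alternatives, with adjusted p values up to 0.225, among them the leaving out of P12 control replicate 2 (0.0533) or 3 (0.112) and of P1 *Otx2* CKO replicate 3 or any of the 3 P1 control replicates (0.0517 to 0.0524).

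*Axl* encodes a receptor tyrosine kinase that binds apoptotic cells through GAS6. The signal of probe set 1423586_at was 177.3, 172.4 and 135.7 in P12 *Otx2* CKO arrays, against 86.9, 106.1 and 69.8 in P12 control arrays. The log2 change of 0.79 (SE 0.20, limma's adjusted p = 0.0181) was the smallest among the members that rose, and 0.40 above the median of all probe sets. Under the 4 scalings between arrays it was 0.44 to 0.47, with adjusted p values of 0.138 to 0.237, and without P12 control replicate 3 the adjusted p was 0.0796. With each age fitted alone limma's adjusted p was 0.231. A second *Axl* probe set, 1438621_x_at, was at 4.8 to 6.1 in P12 *Otx2* CKO arrays and at 4.6 to 7 in P12 control arrays, too low to test.

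*Itgax* encodes CD11c, an integrin of dendritic cells and activated microglia. It had 48, 41.5 and 26.5 in P12 *Otx2* CKO arrays, against 11.6, 1.8 and 1 in P12 control arrays. The arrays did not overlap, and the mean was at least 1.93-fold higher, but both means were under 50 and the gene was therefore not tested.

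Among the lipid genes, *Apoe* encodes apolipoprotein E, the main lipid carrier of the nervous system and a ligand of TREM2. Its signals were 5953.8, 5847.1 and 5678.5 in P12 *Otx2* CKO arrays, against 1100.3, 1976.3 and 1718.5 in P12 control arrays. The *Otx2* CKO arrays lay close together as deposited, and the mean was 3.65-fold higher. This was a log2 change of 1.90 (SE 0.22, limma's adjusted p = 9.44e-05), 1.51 above the median of all probe sets. Within the 3 experiments the ratio was 5.41, 2.96 and 3.30.

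*Lpl* encodes lipoprotein lipase, which splits the triglycerides of lipoproteins. Probe set 1415904_at had 519.2, 195.7 and 293 in P12 *Otx2* CKO arrays, against 211.1, 78.2 and 160.1 in P12 control arrays. The groups overlapped, and the log2 change of 1.07 did not pass the threshold (95% interval 0.24 to 1.91, limma's adjusted p = 0.0722). Its second probe set, 1431056_a_at, gave 0.96 (limma's adjusted p = 0.0629) from 96.4, 23.7 and 45.5 in P12 *Otx2* CKO arrays and 27, 8.7 and 19.4 in P12 control arrays. High and low *Lpl* arrays came in the same experiments: the ratios within experiments were 2.46, 2.50 and 1.83. When arrays were paired by experiment number, limma's adjusted p was 0.0159, and 4.98e-05 when they were paired within each age only. In that last fit limma's prior degrees of freedom were infinite, which makes p values very small, and with quantile normalization within an age, where they were finite, the adjusted p was 0.0148. It also passed without P12 *Otx2* CKO replicate 2 (0.0273) or P12 control replicate 1 (0.0469).

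*Spp1* encodes osteopontin, a secreted ligand of integrins and CD44. Its probe set had 639.9, 419 and 177.6 in P12 *Otx2* CKO arrays, against 34.6, 16.9 and 56 in P12 control arrays. The lowest *Otx2* CKO array was still above the highest control array. The ratio of means was 11.5, with a log2 change of 2.95 (SE 0.39, limma's adjusted p = 0.000287), which ranked 25 among the 21390 probe sets tested. The control mean was 35.8, so the probe set reached the limit through *Otx2* CKO alone and could only be called higher. It was taken from the study's list of genes that rose in these arrays, so its call and rank restate that choice.

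*Cst7* encodes cystatin F, an inhibitor of lysosomal cysteine proteases. It had 94.3, 136.8 and 71.8 in P12 *Otx2* CKO arrays, against 3.9, 1.5 and 8.2 in P12 control arrays. The control values were near the lowest the array reads, so the ratio of means is a bound of at least 5.05-fold. This was a log2 change of 2.49 (SE 0.24, limma's adjusted p = 1.82e-05), rank 52 of 21390. *Cst7* too is in the study's list of genes that rose in these arrays, so its rank is not independent of that list.

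*Cd9* encodes a tetraspanin of the cell surface. It had 1674.4, 1681.9 and 1223.5 in P12 *Otx2* CKO arrays, against 389.9, 940.7 and 431.6 in P12 control arrays. Control replicate 2 stood above the other control arrays, and the ratio within experiments was 4.29, 1.79 and 2.83. The mean was 2.60-fold higher, with a log2 change of 1.45 (SE 0.30, limma's adjusted p = 0.00540), which missed the threshold where each age was fitted alone (0.0710).

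**Figure D2:**
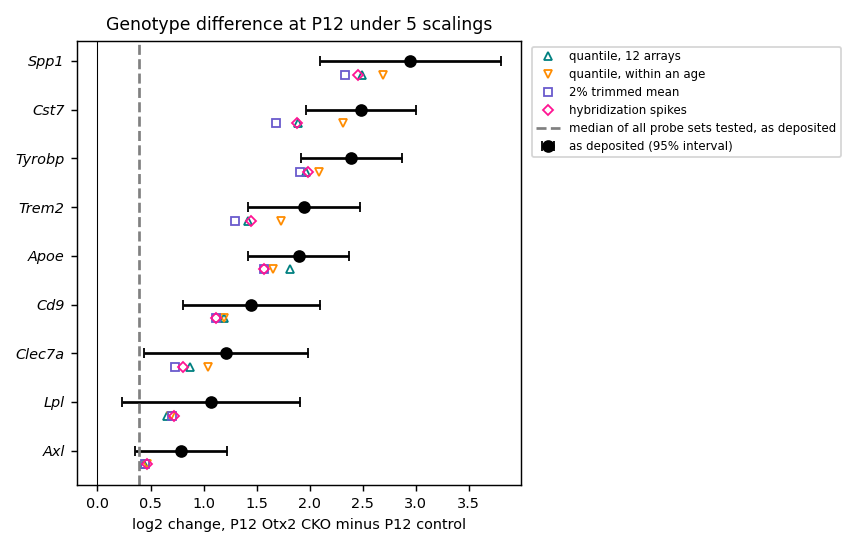
Log2 change between P12 *Otx2* CKO and P12 control retinas for the 8 tested genes and the *Spp1* probe set, as deposited (black, with 95% intervals from limma) and under 4 scalings between arrays (open symbols). The dashed line is the median of all 21390 probe sets as deposited (0.39) and applies to the black points only. Under the 4 scalings that median was 0.08. *Cst7*, *Tyrobp*, *Trem2*, *Apoe* and *Cd9* lay at 1.12 to 2.31 under the scalings, and *Axl* at 0.44 to 0.47.

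At P12 replicate 1 of *Otx2* CKO was brighter (trimmed mean 171.6) than replicates 2 and 3 (108.1 and 109.7) and the control arrays (96.4 to 111.1), and the scaling changed how many members passed. The 4 scalings were quantile normalization of the 12 arrays or within an age, a common 2% trimmed mean, and the hybridization spikes. Under them the median of all probe sets was 0.08, 5 to 6 of the 8 members rose, and 0 fell. Among all 21390 probe sets tested 1207 to 1810 rose and 1384 to 1772 fell. *Cst7* (1.68 to 2.31), *Tyrobp* (1.91 to 2.08), *Apoe* (1.57 to 1.81), *Trem2* (1.30 to 1.73) and *Cd9* (1.12 to 1.19) passed under each of the 4, *Clec7a* (0.73 to 1.04) under 2 of them, and *Axl* and *Lpl* under none. Among all probe sets, rises made up 75.7% of the calls as deposited and 46.6% to 50.5% under the scalings. Without the brightest array, P12 *Otx2* CKO replicate 1, 6 of 7 tested members rose, the median of all probe sets being 0.18. Of all 19973 probe sets tested in that fit 1796 rose and 1263 fell.

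The spread of the members among the 3 P12 *Otx2* CKO arrays depended on the scaling. As deposited, the coefficient of variation was 2.38% for *Apoe*, 7.45% for *Tyrobp*, 13.9% for *Trem2*, 14.1% for *Axl* and 17.2% for *Cd9*. It was 28.5% for *Itgax*, 32.7% for *Cst7*, 49.4% for *Lpl*, 56.1% for *Spp1* and 80.6% for *Clec7a*. After scaling to a common 2% trimmed mean it was 22.1% to 24.9% for *Axl*, *Apoe*, *Tyrobp*, *Itgax*, *Cd9* and *Lpl*, 30.2% for *Trem2*, 41.1% for *Spp1*, 47.0% for *Cst7* and 53.4% for *Clec7a*, so *Apoe* and *Tyrobp* were no more even than *Lpl*. The high array as deposited was not the same in each gene: replicate 1 was the highest for *Clec7a*, *Lpl* and *Spp1*, and replicate 2 for *Cst7* and *Trem2*. After scaling to a common trimmed mean replicate 2 was the highest for *Trem2*, *Tyrobp*, *Apoe*, *Axl*, *Itgax*, *Cst7*, *Cd9* and *Spp1*, and replicate 1 for *Clec7a* and *Lpl*.

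**Figure D3:**
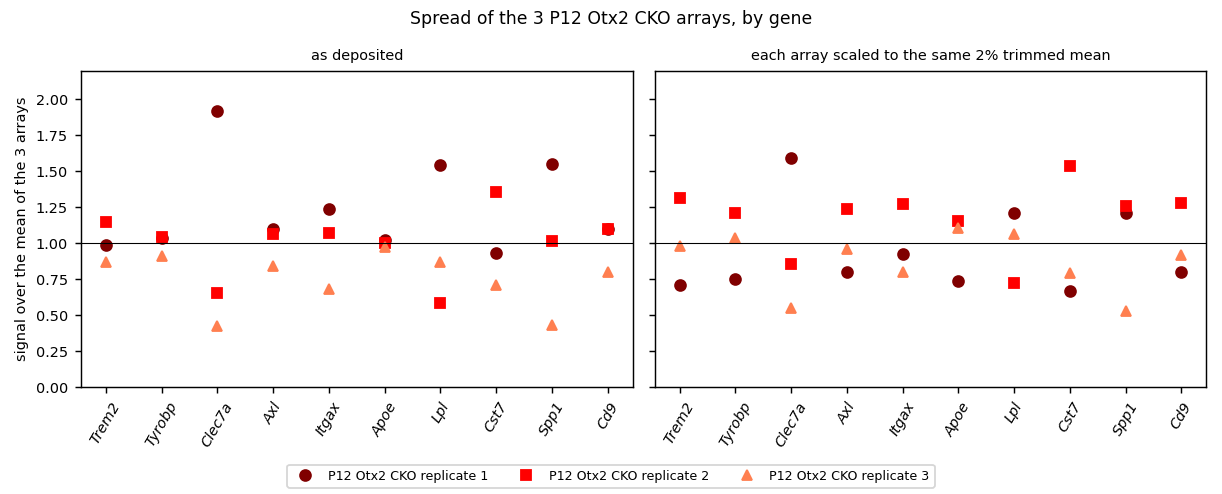
Signal of each P12 *Otx2* CKO array over the mean of the 3, by gene, as deposited (left) and after each array was scaled to the same 2% trimmed mean (right). Replicate 1 (dark red circles) was at 1.92 times the mean for *Clec7a* and at 0.934 times for *Cst7* as deposited; *Apoe* and *Tyrobp* lie close to 1 on the left and spread further on the right.

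The members were then set beside other genes of microglia, from lists chosen with earlier results of these data in view. Here too genes that reached the limit in *Otx2* CKO retinas alone could only be called higher, and those in control retinas alone only lower. Each list is therefore also counted over the genes with a mean of at least 50 in both P12 groups. For every list below, the share among all probe sets tested was 14.1% higher and 4.54% lower. It was 12.4% and 3.21% among those at the limit in both groups. Under the 4 scalings 1207 to 1810 of all 21390 rose. Genes that mark microglia and macrophages in any state were higher as well: 13 of 14 tested rose and 0 fell, with a median of 1.51 (5 of the 6 at the limit in both groups). They were led by the complement genes *C1qa* (2.60), *C1qc* (2.59) and *C1qb* (2.36), whose products tag debris and synapses, and by *Laptm5* (1.80) and *Aif1* (1.74), the gene of the microglia marker IBA1. *C1qa* had signals of 487.4, 868.6 and 485.1 in P12 *Otx2* CKO arrays, against 78.4, 112.9 and 65.7 in P12 control arrays. The summed signal of the 18 genes of this list was 3255 to 4422 in P12 *Otx2* CKO arrays and 879 to 1299 in P12 control arrays, and 12 to 13 of the 14 rose under the 4 scalings.

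As deposited no gene of resting microglia was called lower. Of 12 tested, 6 rose and 0 fell, with a median of 1.37 (2 of the 6 at the limit in both groups rose and 0 fell). They were *Fcrls* (2.25), *Csf1r* (1.78), which encodes the receptor that microglia need to survive, *Gpr34* (1.67), *Cx3cr1* (1.62), the fractalkine receptor, *Sall1* (1.60) and *P2ry12* (1.31), a purine receptor that brain microglia lose on activation. *Cx3cr1* had 186.3, 159.2 and 268.2 in P12 *Otx2* CKO arrays, against 46.5, 47.9 and 70.4 in P12 control arrays. *Tmem119*, *P2ry13* and *Siglech* were under the signal limit in both P12 groups. Under the 4 scalings 5 to 6 of the 12 rose (*P2ry12* under 2 of them), and without P12 *Otx2* CKO replicate 1 it was 4 of 10. With quantile normalization within an age and pairing by experiment number within each age, 8 of the 12 rose and 1 fell. *Fcrls* was listed by the study for its rise in these same arrays, so its value is not independent evidence.

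Of the other genes known from activated microglia, 16 of 25 tested rose and 0 fell, with a median of 1.17 (8 of the 16 at the limit in both groups). *Lyz2* (2.39), the macrophage lysozyme, *Cd68* (2.08), a lysosomal membrane protein of phagocytes, *B2m* (1.73), *Cd83* (1.68) and *Fabp5* (1.44), a fatty acid binding protein, changed most. *Cd68* had 164.1, 178.2 and 148.6 in P12 *Otx2* CKO arrays, against 33.8, 34.7 and 13.9 in P12 control arrays. Under the 4 scalings 9 to 10 of 25 rose, and under 1 of them *Fth1*, the ferritin heavy chain, fell.

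Partners of the member receptors were the next list. Of 12 tested genes 7 rose and 0 fell (median 0.83; 3 of the 7 at the limit in both groups rose), and under the 4 scalings 1 to 4 rose and 1 fell. The gene that fell was *Gas6*, the ligand of AXL, named here after its values were seen. It had 583.8, 377.9 and 308.8 in P12 *Otx2* CKO arrays, against 602.9, 880.5 and 488.1 in P12 control arrays. As deposited its log2 change of -0.62 did not pass (limma's adjusted p = 0.130), under the 4 scalings it was -0.94 to -0.91 (adjusted p up to 0.0123), and without P12 *Otx2* CKO replicate 1 it was -0.87 (limma's adjusted p = 0.0381). *Cd44* (1.78), a receptor of osteopontin, *Itgb2* (1.24), the partner chain of CD11c, *Itgav* (1.07), *Mertk* (0.96), a kinase of the Axl family, and *Csf1* (0.92) changed most as deposited. *Itgb2* had 57.1, 63.4 and 43.8 in P12 *Otx2* CKO arrays, against 15.8, 19.2 and 7.7 in P12 control arrays. Under the scalings *Mertk* passed in 1 of the 4, and *Cd44*, *Itgav* and *Csf1* in none. *Syk*, the kinase below TYROBP, was under the signal limit.

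Lipid handling genes were split. Of 11 tested 4 rose and 1 fell, as also under each of the 4 scalings, and the median of 0.33 was near that of all probe sets. Of the 9 at the limit in both groups 3 rose and 1 fell. *Abca1* (2.13), which exports cholesterol to apolipoprotein E, *Apoc1* (2.06), a neighbour of *Apoe* in its gene cluster, and the lipoprotein receptors *Lrp1* (1.69) and *Lrp8* (1.59) rose. *Apoc1* had 212.4, 157.1 and 82.7 in P12 *Otx2* CKO arrays, against 12.5, 42.4 and 16.3 in P12 control arrays. *Vldlr*, another lipoprotein receptor, fell by 1.07, with 501, 379.2 and 321.2 in P12 *Otx2* CKO arrays and 672.2, 890.2 and 1014.9 in P12 control arrays.

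**Figure D4:**
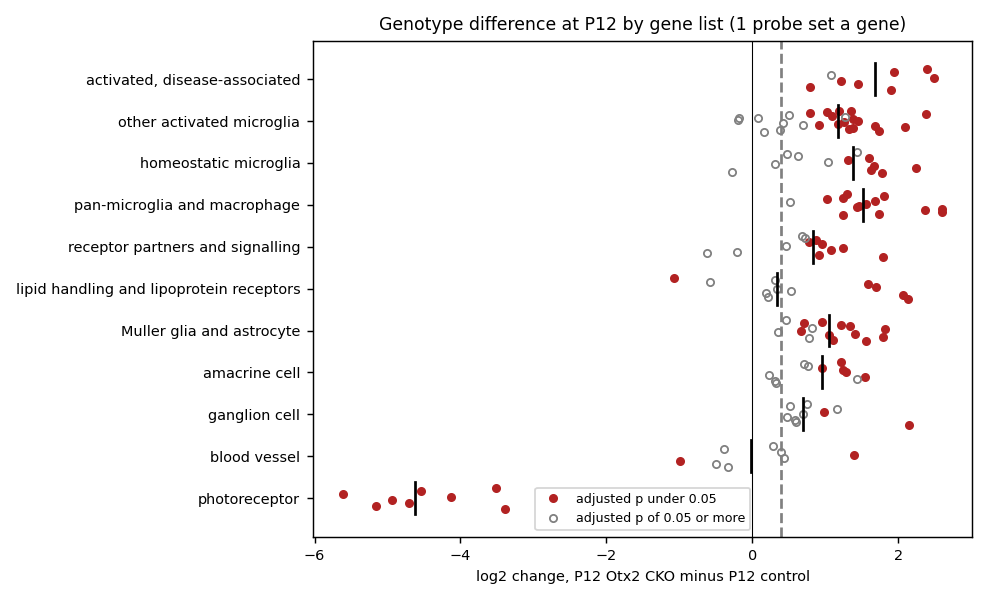
Log2 change between P12 *Otx2* CKO and P12 control retinas of every tested gene of 11 lists, as deposited, with filled points for an adjusted p under 0.05 from limma; black bars are list medians and the dashed line is the median of all probe sets (0.39). The activated-microglia genes and the other microglia lists lie mostly to the right of it, and the 8 photoreceptor genes lie between -5.61 and -3.39.

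Markers of other cells also moved with the genotype, and their part in these results was not tested. Of 15 tested genes of Muller glia and astrocytes 11 rose and 0 fell (median 1.05), and 4 to 6 rose under the 4 scalings. Of the 14 at the limit in both P12 groups 10 rose and 0 fell. The summed signal of these 15 genes was 15188 to 21504 in P12 *Otx2* CKO arrays and 7991 to 14119 in P12 control arrays. This list includes *Gfap*, the filament protein of reactive glia, at 276.8, 193.8 and 151.9 in P12 *Otx2* CKO arrays and 109.8, 74.9 and 33.1 in P12 control arrays (2.86-fold). Of 6 tested pigment epithelium genes, which mark a tissue outside the neural retina, 3 rose (*Dct* 1.94, *Tyrp1* 1.54, *Tyr* 0.84), and 2 under each of the 4 scalings, where *Tyr* passed in none. Of the 3 at the limit in both P12 groups 1 rose, and the other 3 reached it in 1 group only. Markers of monocytes, border macrophages and neutrophils were near background: 9 of the 10 with a probe set were under the signal limit, and the summed signal of the 10 was 84 to 203 in P12 *Otx2* CKO arrays and 152 to 206 in P12 control arrays. Those 9 alone summed to 83.7 to 200.5 in P12 *Otx2* CKO and 54.7 to 123.9 in P12 control arrays. The tenth, *Lyve1*, a hyaluronan receptor of border macrophages and lymphatic vessels, fell by 2.45. It had 2.6, 7.5 and 0.3 in P12 *Otx2* CKO arrays and 82.4, 88.8 and 97 in P12 control arrays. *Lyve1* reached the limit in control retinas alone, so a call could only be toward lower. Of 8 red blood cell genes, which would mark blood in the sample, only 4 had a probe set of 1 symbol, and the others were not read. These 4 were also under the limit, with summed signals of 42 to 101 in P12 *Otx2* CKO and 37 to 69 in P12 control arrays.

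At P1 the members were low in both genotypes. Of the 9 annotated genes only *Apoe* reached the signal limit of 50 and was tested. It had 68, 62.3 and 73.3 in P1 *Otx2* CKO arrays, against 114.9, 97 and 94.2 in P1 control arrays. Each *Otx2* CKO array was below each control array, as in 22% of all 8384 probe sets tested at P1, whose median was -0.20. The log2 change of -0.49 (95% interval -0.98 to -0.01, unadjusted p = 0.0476, limma's adjusted p = 0.915) did not pass, so 0 of 1 member was called, against 0.179% of all probe sets, 15 lower and 0 higher. An unadjusted p below 0.05 was reached by 139 lower and 6 higher.

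*Cd9* was just under the limit at P1, with 52.9, 42.6 and 50.7 in *Otx2* CKO arrays and 50.7, 41.5 and 53.9 in control arrays. These values overlap almost fully. *Cst7*, *Clec7a*, *Itgax* and *Trem2* (1421792_s_at) were at 0.2 to 4.7 in P1 *Otx2* CKO arrays and 0.3 to 3.5 in P1 control arrays, where differences cannot be read. *Tyrobp* had 8.9, 13.1 and 18.3 in P1 *Otx2* CKO arrays and 5.9, 5.8 and 13.3 in P1 control arrays, and *Axl* and *Lpl* likewise overlapped.

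The genotype difference was larger at P12 than at P1 for 4 of 8 tested members and smaller for 0. Of all 21530 probe sets tested 4.87% passed, 3.08% with a larger and 1.79% with a smaller difference, and the median of all was 0.53. Among the members only *Apoe* reached the signal limit at P1. *Cst7*, *Trem2*, *Tyrobp* and the *Spp1* probe set were near the bottom of the scale in both P1 groups, where the offset holds a change close to 0, so their difference mostly restates the change at P12 and cannot show that the genotypes differed less at P1. The difference of the changes was 2.55 for *Cst7* (adjusted p = 0.000891), 2.39 for *Apoe* (0.000815), 2.12 for *Tyrobp* (0.00183) and 1.88 for *Trem2* (0.00785), and for the *Spp1* probe set 3.18 (0.00612), from limma. *Cd9* (1.45, adjusted p = 0.0668), *Lpl* (1.27, 0.180), *Clec7a* (1.03, 0.224) and *Axl* (0.82, 0.111) did not pass. With quantile normalization of the 12 arrays, and with an offset of 1, *Trem2* (adjusted p = 0.104 and 0.117 from limma) and *Tyrobp* (0.0836 and 0.0573) did not pass and the count was 2. Pairing by experiment within each age gave 8, where 6224 probe sets were called larger, against 663 without a block, in the fit with infinite prior degrees of freedom. After quantile normalization within an age, with finite ones, it gave 6 members and 2661 probe sets.

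In the course of postnatal development *Apoe* and *Cd9* rose in both genotypes. Signals were scaled to a common 2% trimmed mean for this, since the P12 arrays were several times brighter. In *Otx2* CKO retinas 5 of 5 tested members were higher at P12 than at P1, where 29.4% of 15062 probe sets tested passed, 14.5% higher and 14.9% lower. Of these 5, *Lpl*, *Axl* and *Tyrobp* reached the limit at P12 alone and could only be called higher, which leaves *Apoe* and *Cd9*. In control retinas 2 of 3 were higher, where 40.5% of 15400 passed, 19.2% higher and 21.3% lower. The medians of all probe sets were -0.04 in *Otx2* CKO and -0.11 in control retinas.

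*Apoe* changed by 3.94 in *Otx2* CKO retinas (adjusted p = 3.13e-07) and by 2.05 in control retinas (adjusted p = 2.16e-05, both from limma). Its scaled signals were 1917, 2990 and 2861 in P12 *Otx2* CKO arrays against 135, 158 and 160 in P1 *Otx2* CKO arrays, and 630.7, 983.1 and 975.5 in P12 control arrays against 220, 188 and 173 in P1 control arrays. The ages did not overlap in either genotype, which held toward higher values for 20.7% of all probe sets tested in *Otx2* CKO and 23.7% in control retinas. *Cd9* changed by 2.45 in *Otx2* CKO (adjusted p = 3.29e-05) and by 1.53 in control retinas (adjusted p = 0.000615, both from limma).

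*Lpl* rose in *Otx2* CKO retinas (1.61, adjusted p = 0.00480) and did not pass in control retinas (0.78, adjusted p = 0.0981, both from limma). In control retinas *Lpl* passed under 6 of 22 alternatives. Limma's adjusted p was 0.0484 with quantile normalization of the 12 arrays, 0.0466 with pairing by experiment number and 0.0108 without P12 control replicate 2. It was 1.41e-05 to 0.0107 with quantile normalization within an age, signals as deposited and spike scaling. There the median of all probe sets was 0.53 to 1.71, and 13353, 11968 and 6641 of 15400 rose, so these fits say little about *Lpl*. *Tyrobp* (1.99, adjusted p = 9.60e-05) and *Axl* (0.73, adjusted p = 0.00990, both from limma) were tested in *Otx2* CKO retinas alone, because both control groups were under the limit after scaling. *Tyrobp* had scaled signals of 125, 200 and 172 in P12 *Otx2* CKO arrays against 17.6, 33.1 and 40.1 in P1 *Otx2* CKO arrays. The *Spp1* probe set changed by 3.13 in *Otx2* CKO retinas (limma's adjusted p = 3.24e-05), and it too reached the limit at P12 alone. The P12 arrays of both genotypes also enter the genotype comparison, so these values are not separate evidence of it.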

How the data were processed

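Total RNA of dissected retinas was labeled and read on Affymetrix Mouse 430 2.0 arrays. The deposited values are linear signal intensities, which the authors determined with GeneChip Operating Software 1.4, and a scaling target or normalization between arrays is not given in the sources used here. Genotypes follow titles, source names and genotype fields; some free-text descriptions name the other genotype. Of 45101 probe sets 64 controls were left out, and 34945 of the rest had 1 symbol (18193 genes). The probe set with the highest mean over the 12 arrays stood for a gene. Labels do not say whether arrays of a group came from separate litters, so p values measure the spread between arrays. In the main fits this spread is pooled over both ages, and the number of arrays limits the precision.

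Tests used lmFit and eBayes with a trend from limma 3.58.1 in R 4.3.3 on log2(signal + 16), with the 12 arrays in 1 model of 4 groups, after checks on simulated data. A probe set was tested where a compared group had a mean of at least 50. P values were adjusted by Benjamini-Hochberg over all probe sets tested, with a threshold of 0.05. Genotypes were compared on signals as deposited, ages after scaling to a common 2% trimmed mean. A group mean under 20 was set to 20 in a ratio, which then is a lower bound. Members and lists were chosen with earlier results of these data known. Named were all members, *Otx2*, up to 5 genes of each list with the largest called change at P12 (with fewer than 3, also the 2 with the highest signal) and the 6 genes with the most similar profile.

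Arrays carry experiment numbers 1 to 3. Deviations from group means correlated between same-numbered arrays within an age (0.538 to 0.880 at P12, 0.143 to 0.250 at P1). They did not in each pair between ages (-0.04 to 0.61), so the numbers were taken to pair arrays within an age. The main tests did not use this pairing, which was run only as an alternative. With it the P12 count of members was 8 rather than 7. Alternatives were 4 scalings, no signal limit or one of 100, log offsets of 1 and 50, a floor of 20, pairing by experiment number as a block, each age alone, no trend, the mean of a gene's probe sets, and leaving out each array. The block within each age was added after seeing the data.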

Additional observations from a re-analysis of the deposited data

Results flagged for a closer look

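The change between *Otx2* CKO and control retinas differed between the ages for 4 annotated members and for the *Spp1* probe set, by limma's test of the difference itself. At P12 minus P1 it was 2.55 for *Cst7* (adjusted p = 0.000891), 2.39 for *Apoe* (0.000815), 2.12 for *Tyrobp* (0.00183), 1.88 for *Trem2* (0.00785) and 3.18 for *Spp1* (0.00612), on the log2(signal + 16) scale. *Apoe* was the sole one of these above the signal limit at P1. The others were near the bottom of the scale in both P1 groups, so their difference mostly restates the change at P12. Its change was 1.90 at P12 and -0.49 at P1, but the P1 change did not pass (limma's adjusted p = 0.915), was -0.33 to -0.23 under the 4 scalings, and stood beside a median of -0.20 over all probe sets at P1. The P1 arrays were 25.0 (*Otx2* CKO) and 29.2 (control) in trimmed mean, against 129.8 and 101.6 at P12, and the part of this brightness in the differences was not tested.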

How the results depend on the processing

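Of 708 gene values under alternatives 666 kept their side of the threshold, 22 lost a call, 20 gained one and 0 reversed. These include the values of the *Spp1* probe set. Many alternatives leave the estimated change as it is and could not reverse it. Within an age these are a block, each age alone, no trend, another signal limit and an array of the other age left out. The 0 therefore rests on the remaining alternatives, such as the scalings and offsets. *Cst7*, *Apoe*, *Tyrobp* and the *Spp1* probe set kept their call at P12 under the 27 alternatives run, and *Trem2* under the 25 in which it was tested. With a signal limit of 100 and with the mean of a gene's probe sets *Trem2* was under the limit. Under the signal limit of 50 *Cst7*, *Trem2* and the *Spp1* probe set could only be called higher at P12. At P12 7 members rose, and 4 where each age was fitted alone. For the difference between ages the count was 4, with 2 under quantile normalization of the 12 arrays, 2 with an offset of 1 and 8 with the experiment number within each age as a replicate block. For P12 *Otx2* CKO against P1 *Otx2* CKO it was 5, and 9 with no signal filter, where more genes were tested. Leaving out 1 array gave 5 to 8 members at P12, 0 at P1, 4 to 6 for the difference, 5 in each fit for age in *Otx2* CKO and 2 to 3 in control retinas. The P12 count was 8 with either replicate block and with quantile normalization within an age plus the block (*Lpl* gained, adjusted p = 0.0148 from limma in that last fit), and the difference count was 5 with the common block (*Cd9*, 0.0369); in control retinas *Lpl* was gained with age, and no other call changed with a block except those of the difference. Over all probe sets at P12, 3019 rose and 971 fell; 1207 to 1810 and 1384 to 1772 under the 4 scalings, 377 and 438 with each age alone, 4638 and 1158 with the common block, 7757 and 1552 with the block within an age, and 5079 and 3606 with it after quantile normalization. At P1 15 fell, 5 with an offset of 50, 28 with the common block, 71 with the block within an age and 41 with it after quantile normalization. For the difference, 663 larger and 386 smaller became 157 and 640 with spike scaling, 224 and 593 with quantile normalization of the 12 arrays, and 343 and 173 with an offset of 1. For age in control retinas, 2955 higher and 3284 lower became 13353 and 327 with quantile normalization within an age and 6641 and 1083 with spike scaling; in *Otx2* CKO retinas 2182 and 2250 became 13942 and 211, and 5585 and 718. The causes were not tested. Dim P1 arrays limit what was tested there to 1 member.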

Other observations

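Some amacrine cell genes were also higher at P12, among them 4 of the 10 with a mean of at least 50 in both P12 groups. Of 11 tested 5 rose and 0 fell, against 14.1% higher among all probe sets (median 0.95; 4 to 5 rose under the 4 scalings): *Pax6* (1.55), a master regulator of the eye, *Slc32a1* (1.29), the GABA and glycine transporter of synaptic vesicles, *Slc6a9* (1.24), a glycine transporter, *Th* (1.22), the enzyme of dopamine synthesis, and *Stx1a* (0.95). *Pax6* had signals of 3638.9, 2810.9 and 2799.6 in P12 *Otx2* CKO arrays, against 913.5, 1006.7 and 1207 in P12 control arrays. Of 9 ganglion cell genes, all at the limit in both P12 groups, 2 rose (1 under each scaling), *Ebf3* (2.15) and *Rbpms* (0.99). *Rbpms* missed the threshold under each of the 4 scalings. The brightest of the others were *Nefl* (0.58, adjusted p = 0.120 from limma) and *Thy1* (0.75, 0.132). Of 3 tested oligodendrocyte lineage genes 2 rose, and of the 2 at the limit in both P12 groups 1 rose. *Olig1* reached the limit in *Otx2* CKO retinas alone and could only be called higher. *Olig1*, a lineage transcription factor, had 100.7, 99.4 and 85.9 in P12 *Otx2* CKO arrays, against 9.4, 5.8 and 1.9 in P12 control arrays (2.37), *Cnp* changed by 1.14, and the myelin gene *Mbp* by 0.57 (adjusted p = 0.134 from limma). Among 8 blood vessel genes the endothelial receptor *Kdr* rose (2.70-fold) and the junction gene *Esam* fell by 0.99, with a list median of -0.02. Of the 7 at the limit in both P12 groups 1 rose and 1 fell.

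Among 14659 probe sets with 1 symbol and enough signal, those whose profile over the 12 arrays was most like the mean profile of 5 member probe sets (*Apoe*, *Lpl*, *Cd9*, *Axl* and *Tyrobp*, scaled to a common trimmed mean) were *Tmem51* (r = 0.988), *Lhfp* (0.987), *Lhfpl2* (0.985), *Parm1* (0.984), *Ly86* (0.983) and *Ctsc* (0.978). The points share age, genotype and array brightness, and the values are a description. *Ly86*, which encodes MD-1, a partner of the receptor RP105 on myeloid cells, had 208.5, 176.1 and 192 in P12 *Otx2* CKO arrays, against 54.2, 80.7 and 72.5 in P12 control arrays. *Ctsc*, the lysosomal cathepsin C, had 985.1, 765.5 and 593.3 in P12 *Otx2* CKO arrays, against 315.9, 422.6 and 327.9 in P12 control arrays.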
